A study of Mus musculus with 27 samples.

Results

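Pappa, Foxb1, Stk32a, Stk39, Mfap3l and Gnat3 are 6 genes of mouse motor neuron progenitors whose RNA was lower after induction of wildtype Nkx2.2 and stood higher when an SD-domain mutant of Nkx2.2 was induced in its place. They were picked by their higher values in the mutant libraries than in the wildtype libraries of the progenitor count table, 6 of 39017 rows, and all 6 passed the filter on low counts that left 15653 genes. The difference between mutant and wildtype is therefore the rule and not a finding. It is given as a description, and so are the differences of each from the uninduced cells, which use the same libraries: fitted values and calls of these 6 genes in progenitors describe them and support nothing.

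Nkx2.2 is a homeodomain transcription factor of the NK2 class. In the ventral neural tube it marks the progenitors of V3 interneurons and represses genes of the neighbouring motor neuron progenitors, and in the pancreas it is needed for the formation and identity of insulin-producing beta cells. The SD domain is a short conserved stretch that NK2-class proteins carry beside the homeodomain. The study asked what this domain does in each tissue.

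The progenitors were made from mouse embryonic stem cells and collected at day 4 of differentiation into motor neurons. Both lines carried a FLAG-tagged Nkx2.2 transgene behind a promoter that doxycycline switches on. The uninduced group, pMN, held 3 untreated libraries of the iNkx2.2 line, the wildtype group held 3 libraries of that line given 1 µg/ml doxycycline for about 16 h, and the mutant group held 2 libraries of the iSDmut line treated in the same way. No doxycycline-treated cells without a transgene and no untreated iSDmut cells were among the samples, so the effects of the drug and of the line cannot be told apart from that of the protein. How many clones each line comprised, and whether the libraries came from separate cultures, is not given in the sources used here, so the spread between libraries may be technical. The genes were also followed in whole pancreas at E15.5 (3 controls and 4 animals with the SD mutation), in islets at 8 weeks (2 controls and 3 libraries labelled beta_SD, with the mutation in beta cells), in islets at 4 weeks (2 controls and 2 libraries labelled beta_KO), and in a ChIP-seq map of Nkx2.2 from MIN6, a beta-cell line of the mouse (2 libraries). The Cre driver that restricts the islet alleles to beta cells is not given in the sources used here.

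Total counts per library were 17757991 to 46840701 in progenitors, 38447596 to 41840638 in embryonic pancreas and 12398041 to 32385406 in islets. Neural progenitor markers were present in all groups. Levels of markers are CPM scaled to the total count of the library, without TMM factors. The summed level of 8 neural progenitor markers was 1230 to 1411 CPM in pMN, 779 to 912 in the wildtype group and 763 to 1130 in the mutant group. Of these 8 neural progenitor markers Olig2, which marks motor neuron progenitors, was at 186 to 276 CPM in pMN, 2.90 to 11.02 with wildtype and 26.1 to 87.4 with the mutant. Pax6 was at 93.5 to 150, 2.25 to 2.81 and 9.95 to 25.2 CPM. By Olig2, the label of motor neuron progenitors held for pMN and not for the wildtype group. Sox3 (127 to 163 CPM in pMN, 48.9 to 71.2 with wildtype) and Sox2 (178 to 192, 131 to 153) were also lower with wildtype. Nkx6-1 (156 to 276, 170 to 290) and Nes (299 to 330, 310 to 349) were not. Sox1 (75.1 to 98.5, 56.7 to 87.5) and Nkx6-2 (19.2 to 32.1, 15.4 to 23.1) overlapped between these 2 groups. The summed V3 and floor plate markers were at 118 to 158 CPM in pMN, 98.0 to 120 with wildtype and 44.6 to 72.5 with the mutant. This sum hides opposite directions. Nkx2-9 was lower with wildtype, at 64.7 to 94.9 CPM in pMN, 1.43 to 5.21 with wildtype and 10.04 to 13.1 with the mutant. Foxa2 (48.8 to 66.4, 93.4 to 109 and 29.3 to 56.2 CPM) and Sim1 (0.12 to 0.39, 0.92 to 1.47 and 0.056 to 0.25 CPM) were higher with wildtype than in pMN. Shh (3.37 to 4.28, 2.25 to 4.70 and 2.08 to 6.10 CPM) overlapped between the groups. Ins2 and Gcg had no read in any of these 8 libraries. The sum of 3 pluripotency markers was 3.04 to 7.21 CPM in pMN, 2.90 to 8.28 with wildtype and 0.169 to 1.82 with the mutant, and the sum of 3 endoderm markers was 19.4 to 53.1, 17.0 to 50.4 and 11.01 to 17.7 CPM. The part of these differences in the results below was not tested. In these bulk samples, fewer cells that express a gene and less of its RNA per cell cannot be told apart.

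Other than for markers, CPM values from here on are normalised (counts scaled to library size with TMM factors). Nkx2-2 itself, read from the transgene and the native gene together, was at 11.6, 5.40 and 10.7 CPM in the pMN libraries, at 378, 343 and 343 CPM with wildtype and at 248 and 245 CPM with the mutant. Both induced groups were far above pMN, and both mutant libraries were below each wildtype library. The mutant minus wildtype difference was -0.53 on the log2 scale (SE 0.222, adjusted p = 0.370 by edgeR's quasi-likelihood test). The part of this lower transgene level in the results below was not tested.

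Pappa encodes a secreted metalloprotease that cleaves IGF-binding proteins and so frees insulin-like growth factors. It lies at chr4:65124174-65357509 on the plus strand (GRCm38). Its level was 46.4, 50.8 and 38.4 CPM in the pMN libraries, 1.61, 1.79 and 0.868 CPM with wildtype Nkx2.2, and 12.5 and 8.23 CPM with the mutant. The wildtype values rest on 79, 40 and 23 counts. The 3 groups did not overlap: wildtype was lowest and the mutant lay between. The fitted log2 difference from pMN was -4.98 (SE 0.274, 31.5-fold lower) with wildtype and -2.13 (SE 0.271, 4.37-fold lower) with the mutant.

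Foxb1 encodes a forkhead transcription factor of the developing neural tube and hypothalamus, and lies at chr9:69757710-69760940 on the minus strand. It showed the same 3 steps. Its level was 49.3, 44.6 and 43.8 CPM in pMN, 1.31, 1.25 and 0.943 CPM with wildtype, and 16.7 and 7.02 CPM with the mutant. Again no library of a group reached another group, but the mutant pair was spread, with library 1 above library 2. The log2 difference from pMN was -5.28 (SE 0.321) with wildtype and -1.96 (SE 0.307) with the mutant. The antisense gene B230323A14Rik overlaps exons of Foxb1. It had 69, 43 and 58 counts in pMN, 9, 1 and 2 with wildtype and 23 and 18 with the mutant. Foxb1 had 886, 735 and 1035 counts in pMN, 64, 28 and 25 with wildtype and 298 and 169 with the mutant. Whether the authors' counting used strand is not stated, so reads of the pair cannot be told apart, and the value of Foxb1 is uncertain to that extent.

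Stk32a encodes a serine/threonine kinase of the YANK family, on chr18:43207697-43317481, plus strand. Its level was 44.8, 25.9 and 45.9 CPM in pMN, 5.80, 3.22 and 4.72 CPM with wildtype, and 85.4 and 28.3 CPM with the mutant. Every wildtype library was below every pMN library, whereas the mutant libraries lay on either side of the pMN mean of 38.9 CPM. The log2 difference from pMN was -3.06 (SE 0.415) with wildtype and 0.54 (SE 0.412, 95% interval -0.38 to 1.47) with the mutant. Mutant library 1 decided the sign of the second value: without it the difference was -0.46 (SE 0.358).

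Stk39 encodes SPAK, a kinase that WNK kinases activate and that phosphorylates cation-chloride cotransporters such as Slc12a2. It lies at chr2:68210445-68472108 on the minus strand. Its level was 45.7, 40.8 and 47.4 CPM in pMN, 20.4, 18.9 and 24.0 CPM with wildtype, and 54.4 and 46.6 CPM with the mutant. This was the smallest wildtype difference of the 6, yet the groups stood apart, and the mutant libraries reached into the pMN range. The log2 difference from pMN was -1.08 (SE 0.126) with wildtype and 0.18 (SE 0.138, 95% interval -0.13 to 0.49) with the mutant.

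Mfap3l encodes a membrane protein with an immunoglobulin domain, a relative of Mfap3, and lies at chr8:60632825-60676731 on the plus strand. Its level was 11.5, 9.04 and 13.5 CPM in pMN, 3.39, 3.98 and 4.34 CPM with wildtype, and 13.3 and 18.9 CPM with the mutant. Mutant library 1 lay inside the pMN range and library 2 above it. The log2 difference from pMN was -1.55 (SE 0.219) with wildtype and 0.50 (SE 0.232, 95% interval -0.02 to 1.02) with the mutant.

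Gnat3 encodes gustducin alpha, the G protein subunit of taste receptor signalling, and lies at chr5:17962570-18019668 on the plus strand. Its level was the lowest of the 6 in CPM, at 4.01, 2.06 and 4.95 CPM in pMN, 0.755, 0.448 and 0.528 CPM with wildtype, and 4.76 and 11.9 CPM with the mutant. These rest on 34 to 117 counts a library in pMN, 10 to 37 with wildtype and 85 and 287 with the mutant. Mutant library 2 was above every other library, and library 1 was inside the pMN range. The log2 difference from pMN was -2.63 (SE 0.462) with wildtype and 1.18 (SE 0.445, 95% interval 0.18 to 2.18) with the mutant.

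NK2-class homeodomains recognise DNA with the core CACTT, searched here on both strands. The RefSeq promoter table (GRCm38.p6) held windows for 3 of the 6 genes, Stk39, Gnat3 and Mfap3l, at 5 start sites, and none for Pappa, Foxb1 and Stk32a. In the 250 bases before the start, the core stood in 2 of the 5 windows, beside 40.7% of 32851 windows of that length, and the longer form CACTTAA, which contains the core, in 1 of 5, beside 2.10%. The windows with a core are those of Gnat3 and of the second start of Mfap3l. They are shown here, 5′ to 3′ on the plus strand with bases of annotated exons left out and the core in capitals, since these are 2 of the genes whose level with the mutant was not below pMN. That of Gnat3 is chr5:17962320-17962548 and that of Mfap3l is chr8:60654854-60655103.
Gnat3: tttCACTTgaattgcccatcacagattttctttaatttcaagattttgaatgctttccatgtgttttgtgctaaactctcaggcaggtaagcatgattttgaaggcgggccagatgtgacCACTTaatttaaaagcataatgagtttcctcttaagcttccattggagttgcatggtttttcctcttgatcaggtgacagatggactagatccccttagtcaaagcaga
Mfap3l, second start: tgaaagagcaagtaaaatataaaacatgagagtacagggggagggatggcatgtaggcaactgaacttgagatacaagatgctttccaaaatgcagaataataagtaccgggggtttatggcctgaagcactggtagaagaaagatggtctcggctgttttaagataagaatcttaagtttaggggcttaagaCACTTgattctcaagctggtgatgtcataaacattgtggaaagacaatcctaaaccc
In Gnat3 the first bases of the cores lie at -247 and -130 from the start, and the second core is the one that extends to CACTTAA. In Mfap3l the core begins at -57. The share of windows with the short core is near that of all promoters, and a match is a description of the letters, not a binding site.

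**Figure D1:**
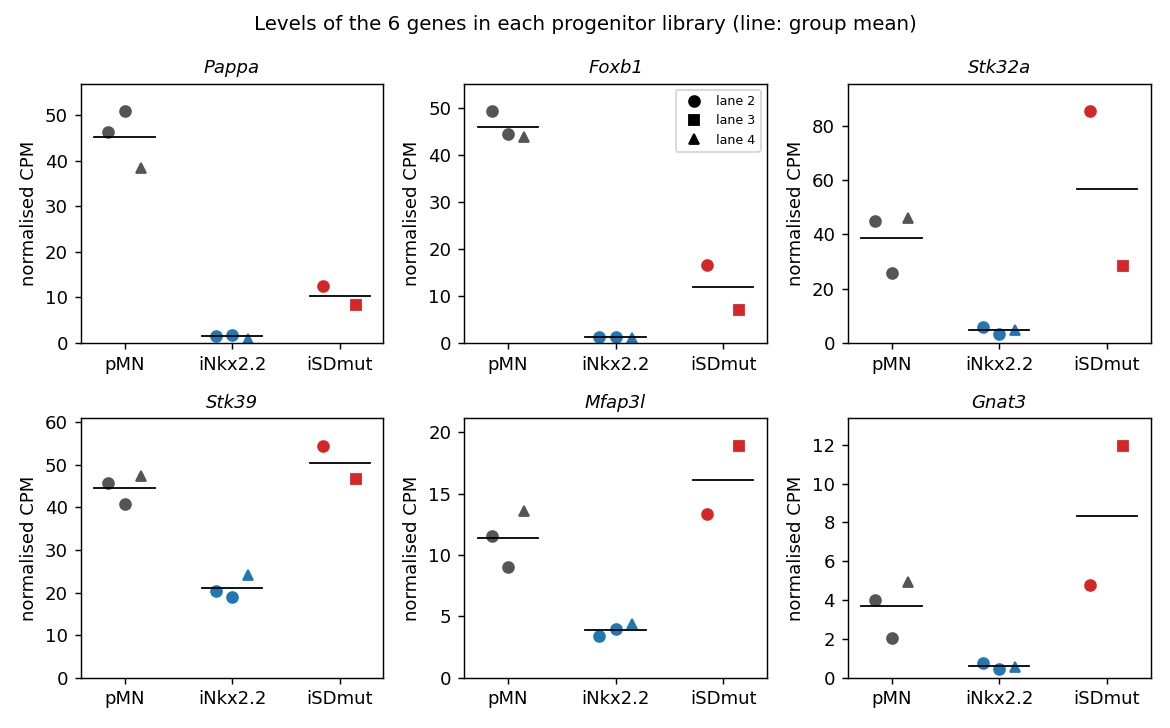
Normalised CPM (vertical axes, from 0) of each gene in each of the 8 progenitor libraries by group, with the group mean as a line and the sequencing lane named in the title of each library as the marker. All wildtype points lie below all pMN points in every panel; the mutant points lie between the other groups for Pappa and Foxb1 and at or above part of the pMN points for the other 4 genes.

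Both sets of differences share the pMN libraries. With wildtype, all 6 genes were lower with no overlap between groups, as were 15.4% of all genes tested, and all 6 were called lower at an adjusted p of 0.05, as were 4.78% (748 of 15653). With the mutant, Pappa and Foxb1 were lower with no overlap, beside 19.2% of all genes, and were the 2 of the 6 called lower, beside 1.64% (257 of 15653). None of the 6 stood higher than pMN with no overlap, beside 17.2% of all genes. Since these libraries chose the genes, nothing is read from the counts. In the fit with the replicate number as a block, 4629 genes in place of 1486 were called in either direction with wildtype (9.49% of all without the block) and 2626 in place of 554 with the mutant (3.54%). No call of the 6 genes against pMN changed with the block. Foxb1 with the mutant (log2 difference -1.90) was not among the genes called without pMN library 1, 1 of 15 alternatives.

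**Figure D2:**
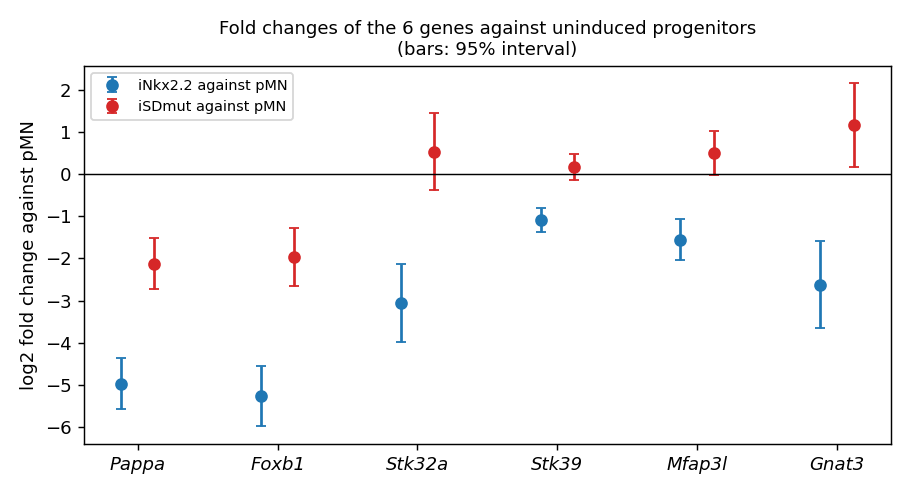
Fitted log2 fold change against pMN (vertical axis) of each gene with wildtype Nkx2.2 (blue) and with the SD mutant (red), with 95% intervals. The mutant points lie below 0 for Pappa (-2.13) and Foxb1 (-1.96) and above 0 for the other 4 genes, from 0.18 for Stk39 to 1.18 for Gnat3.

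Per length, the order of the genes differed between groups. By the authors' FPKM values, mean ± SD in pMN, Foxb1 was highest at 17.9 ± 0.554 (n = 3), followed by Stk39 at 11.4 ± 2.15 and Stk32a at 7.22 ± 2.10. Pappa was at 3.13 ± 0.375, and Gnat3 (1.75 ± 0.789) and Mfap3l (1.74 ± 0.280) did not differ beyond their spread. With wildtype, Stk39 was the highest at 5.89 ± 1.14 FPKM (n = 3), and the other 5 were under 1 FPKM: Stk32a at 0.892 ± 0.260, Mfap3l at 0.629 ± 0.0577, Foxb1 at 0.551 ± 0.0112, Gnat3 at 0.296 ± 0.117 and Pappa at 0.106 ± 0.0373. Of these neighbours Stk32a and Mfap3l overlapped. With the mutant, Stk39 (11.9 ± 1.74, n = 2) and Stk32a (10.9 ± 7.83) led and overlapped, then came Foxb1 at 4.76 ± 2.52, Gnat3 at 3.94 ± 2.15 and Mfap3l at 2.44 ± 0.808, whose ranges overlapped in part, and Pappa was last at 0.746 ± 0.221.

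The share of repression kept by the mutant was taken as its log2 difference from pMN divided by that of wildtype, so that 1 is the full wildtype effect, 0 is none, and a value below 0 means a level above pMN. The share was 0.427 for Pappa and 0.372 for Foxb1. It was below 0 for the other 4 genes: -0.163 for Stk39, -0.177 for Stk32a, -0.323 for Mfap3l and -0.449 for Gnat3. From mutant library 1 alone the shares were 0.372 for Pappa, 0.277 for Foxb1, -0.370 for Stk32a, -0.263 for Stk39, -0.145 for Mfap3l and -0.138 for Gnat3. From library 2 alone they were 0.494, 0.513, 0.149, -0.0567, -0.469 and -0.643 in the same order. The sign held in both libraries for 5 genes, and Stk32a changed sign. The share was higher in library 2 for Pappa, Foxb1, Stk32a and Stk39, and higher in library 1 for Mfap3l and Gnat3. Library 2 was the sole library of lane 3, so the library and its lane cannot be told apart. Within lane 2, which held mutant library 1, wildtype libraries 1 and 2 and pMN libraries 1 and 2, the shares were 0.401, 0.285, -0.443, -0.313, -0.267 and -0.294.

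The scale decides how large the kept share of Pappa and Foxb1 appears. On the linear scale, as the drop in mean CPM with the mutant divided by the drop with wildtype, it was 0.795 for Pappa and 0.761 for Foxb1. Put as levels, Pappa stood at 3.15% of its pMN mean with wildtype and at 23.0% with the mutant, and Foxb1 at 2.54% and 25.8%. Stk32a stood at 11.8% and 146%, Stk39 at 47.3% and 113%, Mfap3l at 34.3% and 142%, and Gnat3 at 15.7% and 227% of pMN.

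The median share of the 6 genes was -0.170, and over the 748 genes called lower with wildtype it was 0.755 (quartiles 0.50 and 0.962). Of these 748 genes, 561 kept a share of at least 0.5, and 24 (3.21%) had a share below 0, the 4 genes Stk32a, Stk39, Mfap3l and Gnat3 among them. Counted from the lowest share, Gnat3 was at place 4, Mfap3l at 10, Stk32a at 14, Stk39 at 15, Foxb1 at 131 and Pappa at 152. By size of the wildtype difference, which is also the divisor of the share, so that the bins and the share are not independent, the median was 0.684 over 137 genes between -1 and -2 on the log2 scale, 0.607 over 63 genes between -2 and -4, and 0.435 over 15 genes under -4, the bin of Pappa and Foxb1, whose shares of 0.427 and 0.372 lay near its median.

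**Figure D3:**
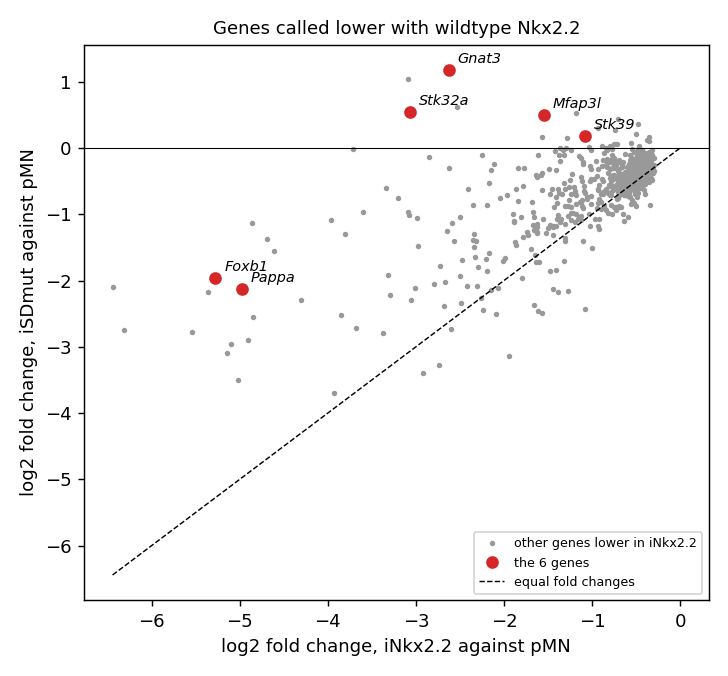
Log2 fold change against pMN with wildtype Nkx2.2 (horizontal axis) and with the SD mutant (vertical axis) for the 748 genes called lower with wildtype, the 6 genes in red; the dashed line marks equal values. Most grey points lie below 0 on the vertical axis, Pappa and Foxb1 lie among the other genes with large wildtype differences, and Gnat3, Stk32a, Mfap3l and Stk39 lie above 0. Both axes share the pMN libraries.

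The mutant minus wildtype difference that chose the genes was 3.81 on the log2 scale for Gnat3 (SE 0.489), 3.61 for Stk32a (SE 0.442), 3.31 for Foxb1 (SE 0.329), 2.85 for Pappa (SE 0.282), 2.05 for Mfap3l (SE 0.236) and 1.26 for Stk39 (SE 0.137). Over all genes 25 of 15653 were called higher in the mutant than in the wildtype group (0.16%; 0.121% were called lower), 18 of which were among the 748 lower with wildtype. The 6 genes are the ones at the top of these 25 in order of p. Just outside stood Acvr2a with a difference of 0.78 (SE 0.101) and Rbm24 with 1.61 (SE 0.211). Against pMN, Acvr2a was at -0.72 with wildtype and 0.06 with the mutant. Rbm24 was above pMN with both, at 1.30 and 2.91, so it was not a gene lower with wildtype. In the authors' deposited table of selected genes, 5 of the 6 have a row, all but Gnat3. In that table Pappa, Foxb1, Stk32a, Stk39 and Mfap3l were each called lower with wildtype than in pMN and than with the mutant. Pappa and Foxb1 were the 2 called lower with the mutant than in pMN. All 1161 rows of that table were called between wildtype and pMN, 70 between wildtype and mutant, and 380 between mutant and pMN. These calls come from the same libraries and are a description. The authors' deposited mutant against pMN log2 values were -2.34 for Pappa, -1.98 for Foxb1, 0.29 for Stk32a, 0.23 for Stk39 and 0.58 for Mfap3l.

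Over the 8 libraries the profile of each gene resembled the mean of the 6 (z-scored log2 CPM), with Pearson r of 0.905 for Pappa to 0.981 for Stk39, a likeness that the choice of genes favours. The lowest r between any pair was 0.700, between Pappa and Gnat3. Among 11310 genes of 2 or more in average log2 CPM, the 5 most like that mean profile were Acvr2a (r = 0.983), an activin receptor, Irs1 (0.980), an adaptor of the insulin and IGF receptors, Lrrfip2 (0.971), Sncaip (0.962) and Cachd1 (0.961). Cachd1 went from a mean of 114 CPM in pMN to 45.3 with wildtype and 112 with the mutant, and Sncaip from 18.3 to 9.91 and 18.7 CPM. Irs1 moved less, from 21.0 to 15.3 and 19.8 CPM. Lane and depth also differ between the libraries, and these r values are a description.

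The other genes listed with each member, by pathway, family or shared name, mostly did not pass the test. Of 61 listed, 52 were tested; 6 were called higher and 5 lower with wildtype against pMN (beside 4.71% and 4.78% of all genes), and 4 higher and 1 lower with the mutant (beside 1.90% and 1.64%), at an adjusted p of 0.05 over all genes by edgeR. Between mutant and wildtype 0 of the 52 were called by edgeR, where 44 of all genes (0.281%) were called. An unadjusted p under 0.05 was found for 12 of the 52, beside the smaller share of 12.5% of all genes. These calls are from the fit without the replicate block. With it, 11 of the 52 were called higher and 5 lower with wildtype, 11 higher and 4 lower with the mutant, and 1 higher, Slc12a2, between mutant and wildtype. The calls made without the block were all kept.

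Around Pappa, 3 of 16 tested genes of the IGF axis were called with wildtype. Stc2, a secreted stanniocalcin that binds and inhibits Pappa, fell from 17.4 to 4.77 CPM with wildtype (log2 -1.87, SE 0.310, adjusted p = 0.00763 by edgeR). With the mutant its level was 6.23 CPM (log2 -1.47, SE 0.353, adjusted p = 0.0536 by edgeR; -1.70, adjusted p = 0.000790 with the replicate block), and the difference between mutant and wildtype was 0.40 (adjusted p = 0.661 by edgeR). The binding protein Igfbp4, a substrate of Pappa, was at 55.2, 98.2 and 74.5 CPM in pMN, wildtype and mutant and passed neither test without the block, while with it both differences passed (0.82 and 0.50). Igfbpl1 rose in both, by 0.53 with wildtype and 1.04 with the mutant. Irs1 fell by 0.46 with wildtype, and Irs2, a second adaptor, fell by 0.90 with the mutant. The median log2 difference of the 16 genes was -0.0021 with wildtype and -0.21 with the mutant, beside -0.01 and -0.01 over all genes tested.

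Around Stk39, 3 of 12 tested genes of the WNK cascade were called with wildtype and 1 with the mutant. The neuronal chloride exporter Slc12a5 rose in both, from 10.1 CPM in pMN to 26.4 with wildtype (log2 1.38, SE 0.163) and 24.5 with the mutant (1.27, SE 0.178). Wnk4, an activator of Stk39, rose by 0.84 with wildtype, and the scaffold Cab39l fell by 0.48 (and with the mutant by 0.53, called with the block alone). Oxsr1, the closest relative of Stk39, was at 146, 131 and 140 CPM and passed neither test, and neither did Wnk1. Slc12a2, the cotransporter that Stk39 phosphorylates, was at 88.8, 82.8 and 115 CPM and passed no test without the block. With the block its mutant minus wildtype difference was 0.60 (SE 0.0661, adjusted p = 0.00394 by edgeR).

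In the lists of the remaining genes, Stk32b, a kinase of the Stk32a family, rose with wildtype (1.59, SE 0.315) and with the mutant (1.51, SE 0.348), opposite to the wildtype direction of Stk32a. Stk32c passed neither test. The extracellular microfibril genes Mfap4 (1.32 with wildtype, 1.11 with the mutant) and Mfap2 (1.03 with wildtype, and 0.74 with the mutant, called with the block alone) rose. They were listed with Mfap3l by name alone. Mfap3, the nearest relative of Mfap3l, was at 127, 121 and 129 CPM. Of 9 tested genes of taste or transducin signalling 1 was called: Gnai1 fell by 0.56 with wildtype. Of 7 tested forkhead genes of the neural tube 1 was called: Foxn4 fell by 1.18 with wildtype.

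In the pancreas 4 of the 6 genes were measurable, and these libraries took no part in the choice. Foxb1 had no read in any of the 7 embryonic or 9 islet libraries. Gnat3 had 0 to 3 counts in each islet library. In embryonic pancreas Gnat3 had 14, 5 and 6 counts in the controls and 0, 0, 0 and 1 in the mutants, too few to pass the filter. Every control was above every mutant, as for 1.82% of genes with at least 1 count, and the adjusted p in the authors' deposited table was 0.588.

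In 8-week islets Pappa and Stk32a were higher with the SD mutation in beta cells. Stk32a was at 106 and 102 CPM in the controls and at 193, 168 and 176 CPM in the beta_SD libraries. All 3 mutant libraries were above both controls, as for 22.6% of all genes tested. The log2 difference was 0.78 (SE 0.0859, adjusted p = 0.00760 by edgeR's quasi-likelihood test). Pappa was low in islets, at 0.849 and 0.560 CPM in the controls (18 and 13 counts) and 2.63, 2.47 and 2.07 CPM in the beta_SD libraries (64, 61 and 57 counts). It too was higher in 3 of 3 mutant libraries, by 1.76 (SE 0.309, adjusted p = 0.0277 by edgeR). Over all genes 4.07% were called higher and 7.94% in either direction (1224 of 15413), beside 2 of the 4 measurable members.

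Stk39 was at 26.6 and 24.2 CPM in the 8-week controls and 33.7, 29.9 and 26.3 CPM in the beta_SD libraries. Its groups overlapped, with a difference of 0.24 (95% interval -0.06 to 0.54). Mfap3l was at 9.11 and 9.22 CPM against 8.41, 11.3 and 11.8 CPM, a difference of 0.20 (95% interval -0.22 to 0.61) with overlapping groups. Stk32a was not called without control 1 (0.81, adjusted p = 0.105 by edgeR) or control 2 (0.75, adjusted p = 0.131 by edgeR). Pappa was not called without control 1 (2.08, adjusted p = 0.137), control 2 (1.48, adjusted p = 0.227) or beta_SD 2 (1.73, adjusted p = 0.104), all by edgeR, nor with the replicate number as a block (1.86, adjusted p = 0.0583). Over all 9 alternatives the adjusted p ran from 4.0e-13 to 0.131 for Stk32a and from 0.00189 to 0.227 for Pappa, the lowest of each by DESeq2. The sum of 5 acinar markers was 5863 and 9862 CPM in the controls and 729 to 8489 CPM in the beta_SD libraries, and that of 4 neural crest and glial markers was 18.2 and 24.6 CPM against 4.21 to 5.45 CPM. Their part in the 2 differences was not tested. In the authors' deposited table Pappa (1.75) and Stk32a (0.78) were the 2 of the 4 called higher, beside 1095 of 12989 rows called.

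In 4-week islets, the libraries labelled beta_KO gave no check of their label: Nkx2-2 was at 104 and 77.2 CPM in the controls and 94.1 and 65.5 CPM in the libraries labelled beta_KO (log2 -0.18, SE 0.237), and which part of the gene was removed is not given in the sources used here. Their labels also name genomic DNA as the molecule, while the values are counts per gene. Stk32a was at 110 and 92.4 CPM in the controls and 145 and 145 CPM in the libraries labelled beta_KO. Both of the latter were above both controls, as for 23.2% of all genes tested, with a difference of 0.52 (SE 0.106, adjusted p = 0.0992 by edgeR, 0.00346 by DESeq2, and up to 0.337 over 8 alternatives). The acinar marker sum was 8777 and 4743 CPM in the controls and 28506 and 11228 CPM in the libraries labelled beta_KO, the neural crest and glial sum was 6.24 and 5.94 against 11.1 and 16.4 CPM, and that of endothelial markers 243 and 297 against 155 and 214 CPM. Gcg, the glucagon gene of alpha cells, was at 26054 and 30139 against 52067 and 58034 CPM. Their part in this difference was not tested. In the authors' deposited table of islets at both ages, Stk32a was called higher with each allele, at 0.51 for beta_KO and 0.81 for the SD mutation. Of its 9971 rows, 446 were called for beta_KO and 1788 for the SD mutation.

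Pappa was at 1.21 and 0.907 CPM against 1.98 and 1.19 CPM, with overlapping groups and a difference of 0.58 (95% interval -0.55 to 1.71). Stk39 (0.24, 95% interval -0.16 to 0.64) and Mfap3l (0.39, 95% interval -0.14 to 0.92) did not pass the test. By edgeR 0 of the 4 genes were called, 1 had an unadjusted p under 0.05, and DESeq2 called 1. Over all genes 1.56% were called (233 of 14942), and 0.81% were called higher. The difference of the 8-week from the 4-week effect, a comparison chosen after the data were seen, was 1.18 for Pappa (95% interval -0.02 to 2.38, adjusted p = 0.373 by edgeR) and 0.27 for Stk32a (95% interval -0.05 to 0.58, adjusted p = 0.441 by edgeR). It was called for 1.21% of 15995 genes and for none of the 4, each of whose intervals held 0. Age and allele cannot be told apart in it.

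In embryonic pancreas none of the 4 genes differed by the test. Pappa was at 10.4, 15.54 and 16.9 CPM in the controls and 15.4, 13.6, 9.29 and 7.39 CPM in the mutants (log2 -0.32, 95% interval -1.005 to 0.36). Stk32a was at 3.76, 5.18 and 2.85 CPM against 2.25, 3.24, 3.41 and 3.48 CPM (-0.34, 95% interval -0.99 to 0.30). Both genes overlapped between the groups, and both values were below 0, opposite to the 8-week islets; the difference between these tissues was not tested. Stk39 was at 90.2, 79.5 and 67.7 CPM against 79.7, 65.2, 96.5 and 91.9 CPM (0.07, 95% interval -0.29 to 0.44). Mfap3l was at 1.14, 2.76 and 4.52 CPM against 1.16, 5.82, 1.30 and 1.35 CPM (-0.22, 95% interval -1.89 to 1.45). Its highest values fell in control 3 and mutant 2. In the same pair of libraries the sum of 7 mesoderm and muscle markers was 3474 and 3162 CPM, against 5.82 to 20.8 CPM in the other 5. Without both libraries, an alternative chosen after the data were seen, the difference of Mfap3l was -0.62 (SE 0.457). By edgeR 0 of the 4 genes were called, 0 had an unadjusted p under 0.05, and DESeq2 called 0. Over all genes edgeR called 1 of 18723 (0.00534%).

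**Figure D4:**
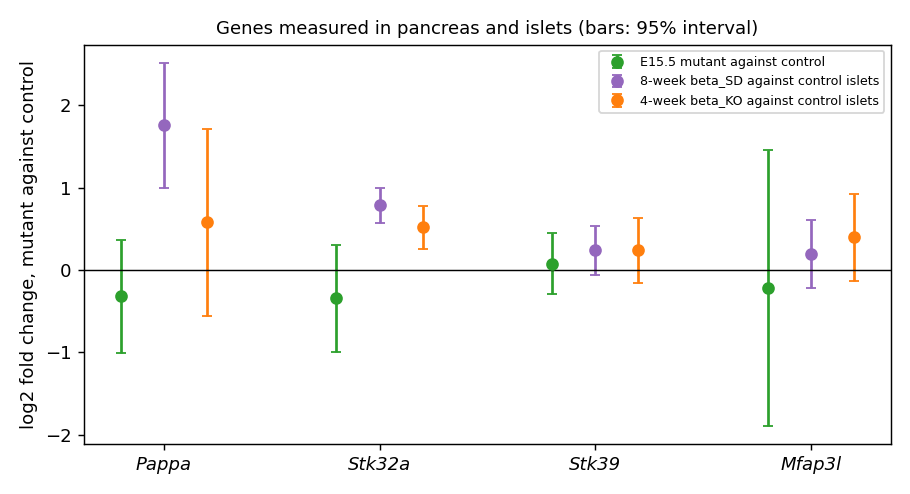
Log2 fold change of mutant against control (vertical axis) for the 4 genes measurable in pancreas, in embryonic pancreas (green), 8-week islets (purple) and 4-week islets (orange), with 95% intervals that are not adjusted for the number of genes. Pappa (1.76) and Stk32a (0.78) in 8-week islets were called after adjustment over all genes; Stk32a in 4-week islets (0.52) has an interval above 0 but was not called.

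Binding of Nkx2.2 was mapped in MIN6 cells, not in progenitors. Of the 6 genes Stk32a alone had a site of the authors' final set within 100 kb, beside 45.4% of 21900 protein-coding genes. It held 3 such sites, all in introns: chr18:43248074, which lies 40.4 kb past the start of the gene, chr18:43279573 at 71.9 kb and chr18:43282476 at 74.8 kb (build mm10, the positions of GRCm38). The first had 96 and 75 reads in the 2 ChIP libraries (6.95 and 6.99 log2 CPM) and was number 2716 of 6473 final sites by mean log2 CPM, the authors' values. Another 4 events near Stk32a were in the full list of 10749 but not in the final set. In the authors' deposited table that joins sites to genes, Stk32a was the only one of the 6 listed. The nearest final site was 133 kb away for Gnat3, 200 kb for Foxb1, 497 kb for Stk39, 651 kb for Mfap3l and 924 kb for Pappa. No enrichment over input was computed, and a site in MIN6 cells says nothing of binding in progenitors.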

How the data were processed

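The authors deposited read counts per gene for progenitors, embryonic pancreas and islets, FPKM values for progenitors and islets, and tables of their own log2 fold changes, p-values and calls (scores of -1, 0 or 1), per the description file deposited with them, which names edgeR and limma, and DESeq2 for embryonic pancreas. Their ChIP-seq tables, deposited as read counts around each GEM event and as log2 CPM of a filtered set of sites, are described in the same file. STAR, Cufflinks, edgeR 3.20.9, limma 3.34.9, bedtools 2.17.0 and build mm10 are named in the submitters' processing notes, with no role or order. The counting rule and the use of strand are not given in the sources used here.

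Tests of counts used edgeR 4.0.16 under R 4.3.3 (TMM factors, filterByExpr with a minimum count of 10, robust quasi-likelihood fit and test, Benjamini-Hochberg adjustment over all genes at 0.05). The 8 progenitor libraries entered 1 fit with 3 groups, and each other comparison used its own libraries (4 to 7). Normalised CPM are counts divided by the TMM-scaled library size. Marker levels are counts divided by the total count of the library, without TMM factors. The standard error is the size of a log2 fold change over the root of its F statistic, and intervals are at 95%. The fits were tested on simulated counts. Genes were placed with RefSeq annotation of GRCm38, and figures were drawn with matplotlib 3.10.9.

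The 6 genes, the lists of partner genes and the markers were chosen with earlier results of these data known. Named beside the 6 are Nkx2-2, listed partner genes called against pMN, and the 5 genes most like the mean profile. Igfbp4, Oxsr1, Wnk1, Slc12a2, Stk32c, Mfap3, Rbm24, B230323A14Rik and the single markers named (those of neural progenitors, of V3 and floor plate, Ins2 and Gcg) fall outside this rule. They were named after their values were seen. Alternatives were RLE factors, total library size, no filter, lane 2 alone, a replicate block, fits of 2 groups, DESeq2 1.42.0, and each library left out. The partner genes under the block were added after seeing the data. Same-numbered pMN and wildtype libraries deviated together (correlations of 0.535, 0.513 and 0.568 of their deviations from the group means, numbers from the titles). The main fit did not pair them, so its standard errors, p-values and calls leave this likeness out. The replicate block, which takes it in, was an alternative only. In the other groups the correlations were lower: 0.343 and 0.0503 between mutant and pMN, 0.332 and 0.112 between mutant and wildtype, -0.0839 and -0.126 in 8-week islets, and -0.0390 in 4-week islets. Deviations within a group of 2 libraries mirror each other, so both 4-week pairs give the same value by construction.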

Additional observations from a re-analysis of the deposited data

Results flagged for a closer look

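Mfap3l was at 5.82 CPM in embryonic mutant 2, and the gap to the next of the 4 mutants was 0.961 of the range of the group. The other 3 mutants were at 1.16 to 1.35 CPM. The same library had a mesoderm and muscle marker sum of 3162 CPM. Gnat3 was at 0.0264 CPM in embryonic mutant 4, which is 1 count against 0 in the other 3 mutants. Both values were singled out because 1 library stood far from the rest of its group. Chance alone does that in about 1 in 20 groups of continuous values; that rate does not apply to Gnat3, where 1 count against 0 fills the range by construction.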

How the results depend on the processing

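Against pMN, the wildtype values of the 6 genes kept direction and call in 90 of 90 combinations of gene and alternative, and the mutant values in 88 of 90. The exceptions were Foxb1 without pMN 1 and Stk32a without mutant 1; with single libraries left out Stk32a ran from -0.46 (without mutant 1) to 1.13 (without mutant 2), and it was 1.29 in lane 2 alone. Since these libraries chose the genes, this is a description. Counts over all genes moved far more. With the replicate block they were 4629 for wildtype against pMN (1486 without it), 2626 for the mutant against pMN (554), 528 for mutant against wildtype (44), 757 for 8-week islets (1224) and 0 for embryonic pancreas, with titles' numbers as the block (1); the block changed no other call of the 6 genes than that of Pappa in 8-week islets, leaving aside mutant against wildtype, which chose them. DESeq2 gave 1349 for the mutant against pMN, 496 for mutant against wildtype, 1999 for 8-week islets, 800 for 4-week islets and 28 for embryonic pancreas. Lane 2 alone gave 151 for the mutant against pMN and 243 against wildtype, fits of 2 groups 295 and 13, and no filter 145 for mutant against wildtype and 372 for 4-week islets (233). Leaving out 1 library gave 412 (wildtype 1) to 1604 for wildtype against pMN, 171 (pMN 1) to 471 for the mutant against pMN, 1 (pMN 1) to 467 (mutant 2) for mutant against wildtype, 37 (control 2) to 2765 (beta_SD 1) for 8-week islets, 4 (control 1) to 478 (beta_KO 1) for 4-week islets and 0 to 2 for embryonic pancreas. The cause of these shifts was not tested. The median share of the 6 genes ran from -0.231 to 0.0463 (without mutant 1) with single libraries left out, and was -0.280 in lane 2 alone and -0.387 on the linear scale. CACTTAA in place of CACTT left 1 of the 5 promoter windows. In embryonic pancreas Stk39 ran from -0.026 (without control 3) to 0.18 with single libraries left out and was -0.0043 without mutant 3, and Mfap3l ran from -1.14 (without mutant 2) to 0.31 (without control 3), was 0.0096 without mutant 1 and 0.015 with the block. With 2 to 4 RNA libraries a group, these data cannot size small differences. Gnat3 and Foxb1 with wildtype and Pappa in islets rest on under 70 counts a library, and Pappa with wildtype on 23 to 79. A fit that leaves 1 library in a group assumes that it varies like the others.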
